A study of Arabidopsis thaliana with 4 samples.

Results

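The UDP-dependent glycosyltransferases (UGT genes) and the glutathione transferases (GST genes) of Arabidopsis were followed in 7-day-old whole seedlings with and without the Polycomb gene EMF2. UGT enzymes move a sugar, most often glucose, from a UDP-sugar onto a small acceptor such as a hormone, a flavonoid, a lignin precursor or a foreign compound, which usually makes it more soluble and less active. GST enzymes join glutathione to reactive compounds or bind them. Both families are large in plants, lie partly in clusters of neighbouring copies, and are known for overlapping acceptor ranges.

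Members were the nuclear genes with a single-gene probe set whose platform symbol begins with UGT and a digit, or with GSTU, GSTF, GSTL, GSTT or GSTZ; UGT75C1 was not taken. This gave 60 genes, 47 UGT and 13 GST, out of 13356 genes with a single-gene probe set. No member had more than 1 probe set. Of the GST genes 11 are of the tau class (GSTU), 1 is phi (GSTF4) and 1 is lambda (GSTL3), and no theta or zeta gene was among them. Genes of these families that the platform table does not name were not analysed here.

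The 4 groups were rescued emf2, which is the emf2 mutant carrying 35S::BoEMF2.1, the emf2 mutant itself, transWT, which is the wild type carrying 35S::BoEMF2.1, and WT, the Columbia wild type. EMF2 is a subunit of a Polycomb repressive complex that keeps floral genes silent in seedlings, and the transgene BoEMF2.1, from Brassica oleracea, is driven by the constitutive 35S promoter. All seedlings grew for 7 days in short days of 8 h light at 21 °C; rescued emf2 and transWT were on plates with hygromycin, emf2 and WT on plates without it, so the transgene and hygromycin cannot be told apart. The labels name neither the emf2 allele nor the number of transgenic lines. Each group was measured on 1 Affymetrix array, so the number of arrays limits the precision, and single-array ratios come without replicate error or p-value.

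Signals are MAS5 intensities on a linear scale. A signal at or below 87.6, the 40th percentile of all probe sets without controls, was set to that value, called the floor here; a ratio whose dimmer array lies below it is a bound and is written as "at least". A gene was counted as higher or lower in a comparison at 2-fold or more. From 46 genes with several probe sets, the error of a log2 ratio was 0.30 to 0.38 (SD, by comparison), without any variation between plantings. The signal of one probe set says little about that of another, so only ratios within a gene are compared.

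Between 13394 and 14015 probe sets were above the floor on each array. Bacterial poly-A control RNAs (4 probe sets above the floor) had a median signal relative to WT of 2.40-fold in rescued emf2, 1.04-fold in emf2 and 1.98-fold in transWT, and the hybridization controls (9 probe sets) were at 1.27-fold, 1.10-fold and 1.22-fold in the same order. Of 12 listed green leaf markers 6 had a named probe set and all 6 were above the floor. Their summed signal was 86667 in rescued emf2, 41795 in emf2, 92572 in transWT and 69402 in WT. In emf2, LHCB4.1, LHCB4.2 and RCA read 13343, 8746 and 12239 and so make up most of that sum. LHCB4.3 read 346 in emf2 and 347 in WT, which the sums do not show. Of 8 root markers 3 were named and all were above the floor. CLV3, a shoot meristem gene, and PAP85, a seed storage gene, were below the floor on all 4 arrays.

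Of the 60 members, 34 were above the floor on all 4 arrays, 8 on some of them and 18 on none. Those 18 were GSTU15, GSTU21, UGT71B5, UGT71B6, UGT71B8, UGT73C1, UGT73C2, UGT73C7, UGT74F1, UGT76D1, UGT76E1, UGT76E2, UGT78D3, UGT84A1, UGT84B1, UGT84B2, UGT85A3 and UGT85A7, none of which exceeded a signal of 86.8. Over all 22746 probe sets without controls, 12145 were above the floor on all 4 arrays and 15111 on 1 or more. At least 2-fold differences in 1 or more of the 5 comparisons were found for 21 members, 16 UGT and 5 GST. That count was not made over all probe sets, so whether 21 is more than usual was not tested. The other 21 members above the floor on 1 or more arrays reached 2-fold in none of the 5 comparisons. For 3 of those 21, UGT72E3, UGT73D1 and UGT85A4, some ratios are bounds, so that the true difference may be larger.

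**Figure D1:**
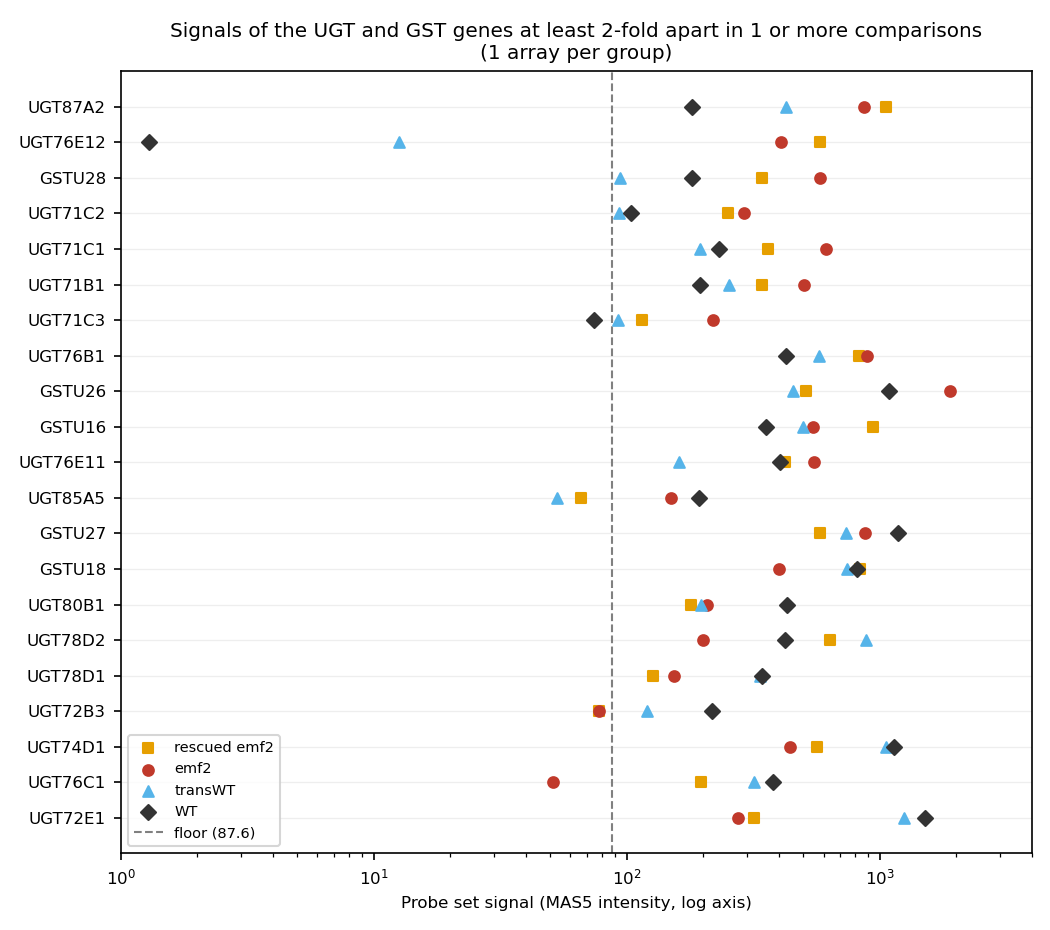
Signals of the 21 UGT and GST genes at least 2-fold apart in 1 or more comparisons, on a log axis of MAS5 intensity; each point is 1 array, and the dashed line is the floor of 87.6. UGT76E12 lies far to the left of the floor in transWT (12.6) and WT (1.3) and right of it in rescued emf2 (584) and emf2 (407).

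Loss of EMF2 with no transgene present is the comparison of emf2 over WT. Of 41 members tested, 8 were at least 2-fold higher in emf2 and 8 at least 2-fold lower. Together these were 39.0% of the members tested, where 18.5% of all 14653 probe sets tested were 2-fold apart (7.34% higher and 11.1% lower). For UGT genes it was 14 of 30 (46.7%) and for GST genes 2 of 11 (18.2%). The median log2 ratio of the members was 0.20, against -0.05 for all probe sets tested. The split of the members depended on the scaling, with 9 higher and 6 lower after quantile normalization. It was 11 and 4 with each array scaled to its median, under which the median of all probe sets was 0.15. Under both scalings 36.6% of members were 2-fold apart, beside 18.4% and 19.1% of all probe sets tested.

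The same background difference in the presence of the transgene was read from rescued emf2 over transWT, a comparison that has no array in common with emf2 over WT. Here 5 of 40 members were at least 2-fold higher and 2 lower, or 17.5%, where 5.25% of all 14250 probe sets tested were 2-fold apart (2.26% higher and 2.99% lower). Members past 2-fold the same way in both comparisons numbered 6, of 39 tested in both (15.4%); over all probe sets it was 492 of 13792 (3.57%). Those 6 were 37.5% of the members past 2-fold in emf2 over WT and 85.7% of those in rescued emf2 over transWT. Over all probe sets these shares were 18.2% and 65.8%. No member was past 2-fold in opposite directions, and only 10 of the 13792 probe sets were. UGT76E12, UGT71C2, UGT87A2 and GSTU28 were higher in both, and UGT72E1 and UGT78D1 were lower in both.

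**Figure D2:**
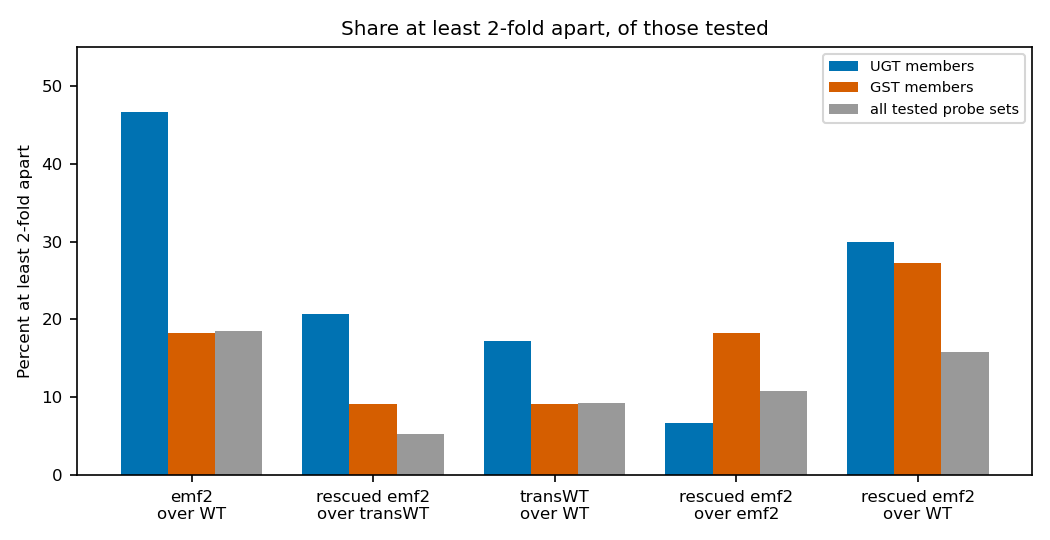
Percent of the tested UGT genes, GST genes and all tested probe sets that were at least 2-fold apart in each of the 5 comparisons; each bar is a count from 1 pair of arrays. UGT genes stand at 46.7% in emf2 over WT against 18.5% of all probe sets, and at 6.67% in rescued emf2 over emf2 against 10.8%.

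The 4 groups also form a design of background (emf2 or wild type) by transgene (with or without), to which an additive model was fitted with limma to the 12145 probe sets that exceeded the floor everywhere. The model leaves 1 residual degree of freedom and assumes that each effect has the same size in both pairs. This is doubtful for both effects, since any gap between a gene's 2 background ratios is equally a gap between its 2 transgene ratios. Of all probe sets tested 18.5% were at least 2-fold apart in emf2 over WT and 5.25% in rescued emf2 over transWT. Each background or transgene effect from the fit is thus an average over 2 pairs that may differ. For the background effect limma called 0 of 34 members and 0.0% of all probe sets in the fit at an adjusted p under 0.05, with 14 members (25.1% of all probe sets) at an unadjusted p under 0.05. With each array scaled to its median it called UGT72E1, GSTU28 and UGT71C2 of 33 members, beside 90 of all 12143 probe sets in that fit. No member therefore passed this test as fitted, and the values below describe these arrays.

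UGT76E12 (AT3G46660) had the highest ratio of the members in rescued emf2 over transWT. Its signal was 407 in emf2 against 1.3 in WT, and 584 in rescued emf2 against 12.6 in transWT. Both arrays of the emf2 background were above the floor and both of the wild-type background far below it, which puts emf2 over WT at 4.65-fold or more and rescued emf2 over transWT at 6.66-fold or more (at least 4.65-fold and at least 6.66-fold higher). With the floor at the 60th percentile the first bound fell under 2-fold (log2 0.65). UGT76E11 (AT3G46670), a close relative that glucosylates flavonols, read 551 in emf2 against 405 in WT, and 424 in rescued emf2 against 162 in transWT. It was within 2-fold in emf2 over WT and 2.62-fold higher in rescued emf2 over transWT, where the transWT array was the low one of the 4.

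UGT87A2 (AT2G30140), known from mutants that flower late and linked to the floral repressor FLC, read 866 in emf2 against 181 in WT, a 4.79-fold higher signal. In rescued emf2 it read 1056 against 428 in transWT, 2.47-fold higher. WT was the lowest of the 4 arrays and transWT the next, so the gene was also 2.37-fold higher in transWT than in WT. The additive fit in limma gave a background effect of 1.78 ± 0.29 (log2, SE; adjusted p = 0.102).

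GSTU28 (AT1G53680), a tau class glutathione transferase, read 581 in emf2 against 181 in WT and 343 in rescued emf2 against 94.1 in transWT, 3.20-fold and 3.64-fold higher. Both arrays of the emf2 background were above both of the wild-type background. The limma fit gave a background effect of 1.77 ± 0.21 (log2, SE; adjusted p = 0.0847, and 0.0381 with each array scaled to its median). Its transWT signal lies just above the floor; with the floor at the 60th percentile the second ratio was within 2-fold (log2 0.41).

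Of 6 tested genes of the UGT71 group, 4 passed 2-fold upward in emf2 over WT and none downward, where 7.34% of all probe sets tested were higher and 11.1% lower. UGT71C2 (AT2G29740) read 290 in emf2 against 104 in WT, and 253 in rescued emf2 against 93.1 in transWT, 2.79-fold and 2.71-fold higher. UGT71C1 (AT2G29750), which glucosylates quercetin and other phenolics in vitro, read 614 in emf2 against 232 in WT and 363 in rescued emf2 against 194 in transWT. Both arrays of the emf2 background were higher for these neighbouring genes, though UGT71C1 reached 2-fold only without the transgene (2.65-fold against 1.87-fold). UGT71B1 (AT3G21750) was 2.58-fold higher in emf2 (504) than in WT (196), with 344 in rescued emf2 against 254 in transWT. For UGT71C3 (AT1G07260), which conjugates methyl salicylate, the signal was 219 in emf2 and below the floor in WT (74.1), at least 2.50-fold higher; rescued emf2 (115) and transWT (92.6) differed little. With the floor at the 60th percentile UGT71C2, UGT71C3 and UGT71B1 were no longer counted in emf2 over WT. The remaining measured members of the group, UGT71C4 and UGT71C5, of which the second glucosylates abscisic acid, stayed between log2 -0.26 and 0.27 in all 5 comparisons.

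Lignin precursors are conjugated by the UGT72E enzymes. Of 8 listed genes for monolignols and sinapate, 6 were members and 5 above the floor, and in emf2 over WT 1 of the 5 was at least 2-fold lower and none higher, against 11.1% lower and 7.34% higher of all probe sets tested; a count of 1 is near that share. UGT72E1 (AT3G50740), which acts on the cinnamyl aldehydes, read 274 in emf2 against 1506 in WT, and 318 in rescued emf2 against 1249 in transWT. It was 5.49-fold and 3.92-fold lower, the lowest log2 ratio in both comparisons among members above the floor on both arrays, and both arrays of the emf2 background were below both of the wild type. The limma fit gave -2.21 ± 0.23 (log2, SE; adjusted p = 0.0847, and 0.0381 with each array scaled to its median). UGT72E2 (AT5G66690), which acts on the cinnamyl alcohols, stood on the other side, at 1357 in emf2 against 709 in WT and 815 in rescued emf2 against 638 in transWT, within 2-fold both times. UGT72E3 was above the floor only in emf2 (109). UGT72B3 (AT1G01420) was below the floor in emf2 (78) and rescued emf2 (77.7) and read 218 in WT and 120 in transWT; it was at least 2.49-fold lower in emf2 than in WT. Of the sinapate-conjugating genes, UGT84A3 and UGT84A4 were within 2-fold throughout (log2 -0.69 to 0.73).

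Of 15 listed flavonoid-conjugating genes, 6 were members and 4 of them above the floor; in emf2 over WT 1 (UGT71C1) was at least 2-fold higher and 2 were lower, beside 7.34% and 11.1% of all probe sets tested. Both lower ones were the measured genes of the UGT78 group. UGT78D1 (AT1G30530), which puts rhamnose on flavonols, read 154 in emf2 against 344 in WT and 127 in rescued emf2 against 337 in transWT, 2.24-fold and 2.65-fold lower. The 2 arrays of each background lay close together. UGT78D2 (AT5G17050), which puts glucose on flavonols and anthocyanidins, read 200 in emf2 against 422 in WT, 2.12-fold lower, but 638 in rescued emf2 against 887 in transWT, within 2-fold. In emf2 over WT UGT78D1 was within 2-fold with each array scaled to its median (log2 -0.95), and UGT78D2 also after quantile normalization (-0.97 and -0.87 with median scaling). UGT73B1, UGT88A1 and the glucosinolate gene UGT74B1 stayed within 2-fold in every comparison.

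Of the genes listed as hormone-conjugating, 6 of 11 with a named probe set were above the floor. In emf2 over WT 2 were at least 2-fold higher (UGT87A2 and UGT76B1) and 2 at least 2-fold lower, beside 7.34% and 11.1% of all probe sets tested. UGT87A2 was counted in this list, though it is described above by a flowering phenotype and not by a hormone acceptor. The lower ones were UGT76C1 and UGT74D1. UGT76C1 (AT5G05870), a cytokinin N-glucosyltransferase, was below the floor in emf2 (51.1) against 380 in WT, at least 4.34-fold lower, and read 197 in rescued emf2 against 318 in transWT. With the floor at the 60th percentile its bound in emf2 over WT was within 2-fold (log2 -0.56). Its neighbour UGT76C2 (AT5G05860), of the same activity, read 326 in emf2 against 633 in WT and 324 in rescued emf2 against 607 in transWT, with log2 ratios of -0.96 and -0.90. Both cytokinin genes were thus lower on both arrays of the emf2 background, of which 1 ratio passed 2-fold. UGT74D1 (AT2G31750), which glucosylates auxin, read 440 in emf2 against 1139 in WT, 2.59-fold lower, and 565 in rescued emf2 against 1058 in transWT (log2 -0.90). UGT76B1 (AT3G11340), which conjugates salicylic acid, isoleucic acid and N-hydroxypipecolic acid, read 888 in emf2 against 427 in WT, 2.08-fold higher, and 826 in rescued emf2 against 576 in transWT (log2 0.52).

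The last members past 2-fold in emf2 over WT were UGT80B1 and GSTU18. UGT80B1 (AT1G43620), a sterol glucosyltransferase, read 208 in emf2 against 431 in WT, 2.07-fold lower, and 180 in rescued emf2 against 196 in transWT; WT alone was high. It was within 2-fold after quantile normalization (log2 -0.94), cyclic loess (-0.91) and median scaling (-0.84). GSTU18 (AT1G10360), of the tau class, read 400 in emf2 against 816 in WT, 2.04-fold lower, and 835 in rescued emf2 against 743 in transWT; emf2 alone was low, and with median scaling the ratio was within 2-fold (-0.82).

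At a floor of the 60th percentile UGT72B3, UGT78D1, UGT78D2 and UGT80B1 were also no longer counted in emf2 over WT, nor UGT71C2, UGT78D1 and UGT76E11 in rescued emf2 over transWT.

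Markers of tissues differed between the same arrays. The root hair expansin genes EXPA18 and EXPA7 read 1404 and 699 in emf2 against 335 and 262 in WT, and 473 and 334 in rescued emf2 against 251 and 189 in transWT, while the root gene PYK10 was at log2 0.09 and 0.01 in these comparisons. In emf2 over WT the 2 expansin genes were thus 4.19-fold and 2.67-fold higher. The summed root list was 18206 in emf2 against 15775 in WT, and 18754 in rescued emf2 against 18282 in transWT, but PYK10 alone makes up 16103 of it in emf2 and 15178 in WT, so the sum does not show the expansin genes. Of the 6 green leaf genes, PRK and SBPASE of the Calvin cycle were at least 2-fold lower in emf2 than in WT. The part of such tissue differences in the UGT and GST ratios was not tested, and in whole seedlings fewer cells of a type and less RNA per cell cannot be told apart.

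**Figure D3:**
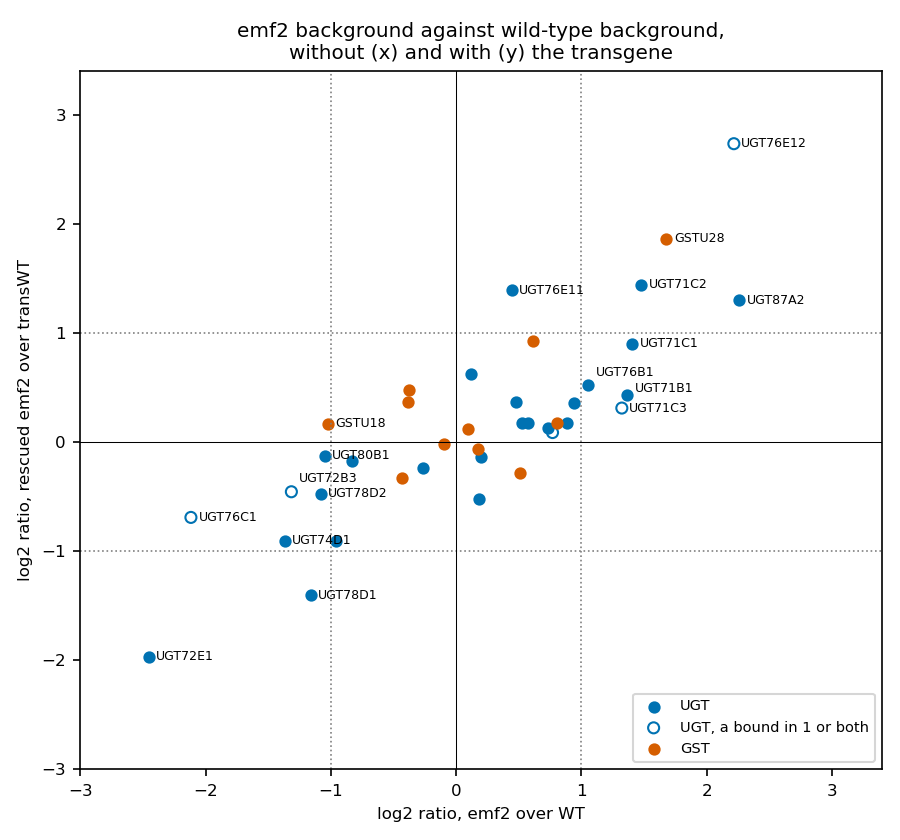
Log2 ratios of the UGT and GST genes tested in both comparisons, for emf2 over WT (x) and rescued emf2 over transWT (y); each point is 1 gene, open circles are bounds and dotted lines mark 2-fold. UGT76E12, GSTU28, UGT71C2 and UGT87A2 lie above 2-fold on both axes, and UGT72E1 and UGT78D1 below it on both.

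Differences that go with 35S::BoEMF2.1 and hygromycin in a wild-type background are those of transWT over WT. Here 2 of 40 members were at least 2-fold higher and 4 lower, or 15.0%, where 9.2% of all 14620 probe sets tested were 2-fold apart (3.88% higher and 5.32% lower). The split was 2 and 3 after quantile normalization and cyclic loess, and 2 and 2 with median scaling. In that order these were 12.5%, 12.5% and 10.0% of members, beside 9.39%, 8.93% and 9.24% of all probe sets tested. With median scaling the members were thus close to the rest. The members' median log2 ratio was -0.07, as was that of all probe sets; the members' median was 0.08 with median scaling and 0.02 after cyclic loess. In the emf2 background, rescued emf2 over emf2 had 3 of 41 members at least 2-fold higher and 1 lower, or 9.76%, close to the 10.8% of all 14122 probe sets tested (5.85% higher and 4.97% lower). These comparisons share no array, and 2 members of 39 tested in both (5.13%) were past 2-fold the same way in both, against 464 of 13631 probe sets (3.4%).

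UGT78D2, the flavonoid 3-O-glucosyltransferase, was the one that was higher in both. Its signal was 887 in transWT against 422 in WT, 2.1-fold higher, and 638 in rescued emf2 against 200 in emf2, 3.20-fold higher. Both transgenic arrays were above both others. The limma fit gave a transgene effect of 1.37 ± 0.24 (log2, SE; adjusted p = 0.0962, and 0.0434 with median scaling). Of the same pathway UGT78D1 had transgene ratios of log2 -0.03 and -0.27.

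GSTU26 (AT1G17190), of the tau class, was the one that was lower in both. It read 453 in transWT against 1087 in WT, 2.40-fold lower, and 510 in rescued emf2 against 1894 in emf2, 3.71-fold lower. Both transgenic arrays were below both others (limma transgene effect -1.58 ± 0.25, log2, SE; adjusted p = 0.0869). The next gene on the chromosome, GSTU25 (AT1G17180), known for detoxifying trinitrotoluene, read 1582 in transWT against 1193 in WT and 1516 in rescued emf2 against 1344 in emf2 and stayed within 2-fold. Over all 34 members in the fit limma called 0 for the transgene effect, as against 0.0576% of all probe sets (7 of 12145). At an unadjusted p under 0.05 were 7 members, where 20.7% of all probe sets were. With median scaling limma called UGT78D2 of 33 members, beside 220 of all 12143 probe sets in that fit.

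The tissue markers also differed in the transgene comparisons. In rescued emf2 over emf2, 4 of the 6 green leaf genes were at least 2-fold higher (median log2 1.04 over the 6), and of the 3 root genes EXPA18 (-1.57) and EXPA7 (-1.07) were at least 2-fold lower. In transWT over WT 1 of the 6 green leaf genes was at least 2-fold higher (LHCB4.3, 2.24) and none of the 3 root genes passed 2-fold. The poly-A controls also went with the transgene, at 2.40-fold of WT in rescued emf2 and 1.98-fold in transWT, against 1.04-fold in emf2. Whatever set these controls apart cannot be told apart from the transgene and hygromycin. The part of the markers and of the controls in the ratios of UGT78D2, GSTU26 and the other members was not tested.

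Other members were past 2-fold in a single background. UGT76E11 was 2.51-fold lower in transWT (162) than in WT (405) and at log2 -0.38 in rescued emf2 over emf2. UGT80B1 was 2.20-fold lower in transWT than in WT (within 2-fold after cyclic loess, log2 -0.97, and median scaling) and at -0.21 in the mutant. UGT85A5 (AT1G22370) was below the floor in transWT (53.1) against 193 in WT, at least 2.20-fold lower, and below it again in rescued emf2 (65.8) against 150 in emf2, at least 1.71-fold lower. Both transgenic arrays were thus below the floor and both others above it; with quantile normalization and median scaling the first bound was log2 -0.99 and -0.98. UGT87A2 was 2.37-fold higher in transWT than in WT and at log2 0.29 in rescued emf2 over emf2. A floor at the 60th percentile left UGT76E11, UGT80B1, UGT85A5 and UGT87A2 uncounted in transWT over WT, and UGT76C1 in rescued emf2 over emf2. In the mutant, UGT76C1 read 197 in rescued emf2 against 51.1 in emf2 (at least 2.25-fold higher), and GSTU18 835 against 400 (2.09-fold higher). Both ratios share the emf2 array with emf2 over WT, in which the same genes were low.

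**Figure D4:**
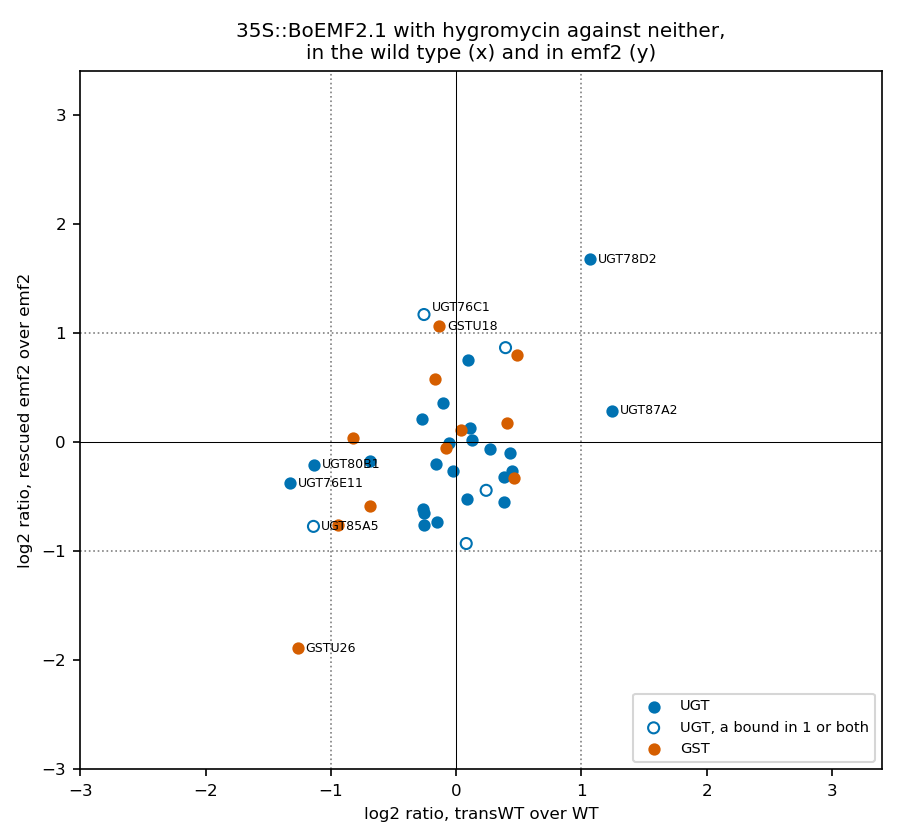
Log2 ratios of the UGT and GST genes tested in both comparisons, for transWT over WT (x) and rescued emf2 over emf2 (y); each point is 1 gene, open circles are bounds and dotted lines mark 2-fold. UGT78D2 lies above 2-fold on both axes and GSTU26 below it on both, while most genes lie inside the dotted lines.

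The distance of rescued emf2 from untransformed seedlings is rescued emf2 over WT, which shares its arrays with the comparisons above. Of 41 members tested, 4 were at least 2-fold higher and 8 lower, or 29.3%, where 15.8% of all 14593 probe sets tested were 2-fold apart (5.91% higher and 9.9% lower). The split was 7 and 5 after quantile normalization, 7 and 6 after cyclic loess, and 7 and 4 with median scaling. In that order these were 27.9%, 31.7% and 25.6% of members, beside 14.9%, 14.4% and 15.5% of all probe sets tested. UGT76E12 (at least 6.66-fold), UGT87A2 (5.84-fold), GSTU16 (2.66-fold) and UGT71C2 (2.43-fold) were the higher ones. GSTU16 (AT1G59700), of the tau class, read 944 in rescued emf2, 543 in emf2, 498 in transWT and 355 in WT, and passed 2-fold in this comparison alone; with median scaling it also did so in rescued emf2 over transWT (log2 1.02).

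Lower in rescued emf2 than in WT were UGT72E1 (4.73-fold), UGT78D1 (2.70-fold), UGT72B3 (at least 2.49-fold), UGT80B1 (2.39-fold), UGT85A5 (at least 2.20-fold), GSTU26 (2.13-fold), GSTU27 (2.02-fold) and UGT74D1 (2.01-fold). GSTU27 (AT3G43800) read 583 in rescued emf2, 876 in emf2, 733 in transWT and 1179 in WT; like UGT74D1 it was within 2-fold after quantile normalization, cyclic loess and median scaling. GSTU26 was within 2-fold with median scaling (log2 -0.83), and UGT85A5 with that and with quantile normalization. The floor at the 60th percentile ended 5 of the 12 counts, those of UGT71C2, UGT72B3, UGT78D1, UGT80B1 and UGT85A5. With these scalings UGT76B1, GSTU28 and UGT71B1 were at least 2-fold higher instead (log2 1.01 to 1.21), against 0.95, 0.92 and 0.81 here. UGT78D2 and GSTU18, both 2-fold lower in emf2 than in WT, were at log2 0.60 and 0.03 in rescued emf2 over WT, and UGT76C1 at -0.95.

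Of the 5 members with the highest mean signal, 4 stayed within 2-fold throughout. GSTL3 (AT5G02790), of the lambda class, whose enzymes act as thiol transferases, read 2432 in rescued emf2, 2529 in emf2, 2234 in transWT and 2367 in WT, and its log2 ratios lay between -0.08 and 0.12. UGT88A1 (AT3G16520) read 2545 in rescued emf2, 1512 in emf2, 2868 in transWT and 2693 in WT, with emf2 the low array. GSTU20 (AT1G78370), linked to glucosinolate and jasmonate functions, read 2329 in rescued emf2, 2273 in emf2, 1669 in transWT and 2950 in WT, a range within 2-fold. GSTU25 and GSTU26, described above, complete the 5, and GSTU26 is the one that passed 2-fold. GSTU22 stayed between log2 -0.10 and 0.11. GSTF4, GSTU23, UGT73B4, UGT73B5 and UGT85A2 stayed between log2 -0.52 and 0.89. UGT85A4 was below the floor in WT alone, and its ratios lay between -0.44 and 0.77, those over WT being bounds. UGT73D1 read 160 in rescued emf2, 77.6 in emf2, 115 in transWT and 40.6 in WT, with both transgenic arrays above the floor and both others below it. Its bounds were log2 0.87 or more in rescued emf2 over emf2 and over WT and 0.39 or more in transWT over WT, and with the floor at the 25th percentile these were 1.04, 1.98 and 1.50, past 2-fold. UGT73B5, which was at 0.89 in emf2 over WT, passed 2-fold there after quantile normalization (1.03), cyclic loess (1.0) and median scaling (1.10).

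Many of these genes are neighbours. In the RefSeq gene order (TAIR10.1, used for order only), 39 of the 60 members lie in 16 runs of genes of their own family with at most 3 other protein-coding genes between them. Some adjacent genes differed. In the run of UGT71C5, UGT71C4 and UGT71C3, the log2 ratios of emf2 over WT were 0.20, -0.26 and at least 1.32. UGT76E12 and UGT76E11, with 1 gene between them, were at least 2.22 and 0.44 in emf2 over WT. The adjacent UGT71C2 and UGT71C1 were at 1.48 and 1.40, and UGT76C2 and UGT76C1 at -0.96 and at most -2.12. In transWT over WT the adjacent GSTU25 and GSTU26 were at 0.41 and -1.26, and UGT85A2 and UGT85A5 at 0.38 and at most -1.14. How far the probe sets of such close copies also bind each other's RNA was not tested.

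**Figure D5:**
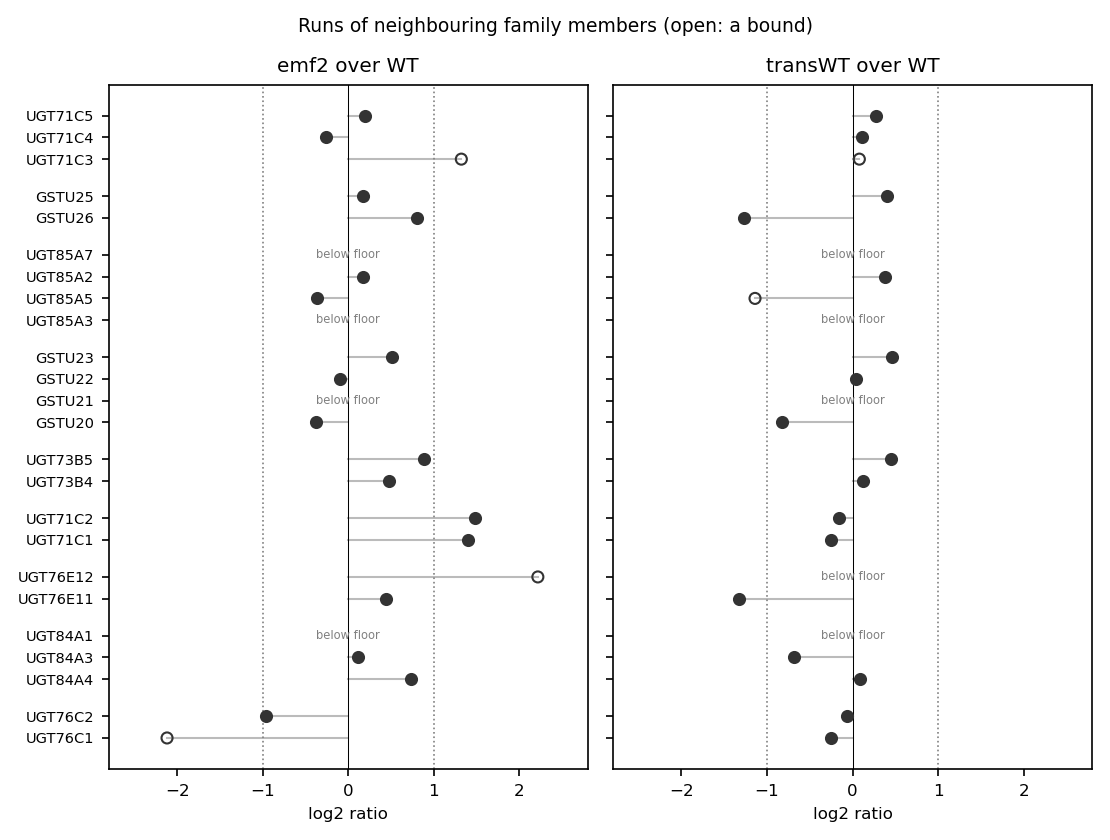
Log2 ratios of emf2 over WT (left) and transWT over WT (right) for runs of neighbouring UGT or GST genes with at least 2 members above the floor, in chromosome order within each run; filled points are measured on both arrays, open points are bounds and dotted lines mark 2-fold. UGT71C3 (1.32) stands apart from UGT71C4 (-0.26), and GSTU26 (-1.26 in transWT over WT) from GSTU25 (0.41), while UGT71C2 (1.48) and UGT71C1 (1.40) lie together.

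Few genes of the wider glutathione and detoxification pathway had a named probe set. The lists hold gene names, some of which are synonyms of one another. Of 25 names listed for glutathione synthesis and recycling, 2 genes had such a probe set, both of them glutathione reductases. GR1, the cytosolic enzyme, read 2448 in emf2 against 2197 in WT and 2717 in rescued emf2 against 3226 in transWT, within 2-fold. GR, the enzyme of plastids and mitochondria, read 1143 in emf2 against 2635 in WT, 2.31-fold lower, and 1828 in rescued emf2 against 2283 in transWT. Of 19 names listed for other xenobiotic and electrophile responses, 2 genes had one, among them AER, an alkenal reductase. Both were within 2-fold in all 5 comparisons. None of the 23 names listed for exporters of conjugates matched a nuclear single-gene probe set.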

How the data were processed

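RNA of whole seedlings was hybridised to 1 Affymetrix array per group. The deposited values are probe set intensities on a linear scale that the authors made with MAS5, per the submitters' processing notes, with no version or settings given in the sources used here. The 2% trimmed means of the deposited intensities were 500.0 on every array, so the arrays had been scaled before deposit. MAS5 subtracts mismatch signals, so that dim probe sets give unsteady ratios.

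Arrays were rescaled to one 2% trimmed mean, floored at the 40th percentile (87.6) of 22746 probe sets (64 controls left out), and compared as log2 ratios. Where neither array exceeded the floor, no ratio was computed. The additive model was fitted with limma 3.58.1 (lmFit, eBayes, Benjamini-Hochberg). It was also run on simulated data with a background effect alone and equal noise for all probe sets. That run checks the code, and not whether the model holds for these arrays. Probe sets were named through the platform table, which lists 14016 of 22810, 13513 of them with 1 gene; 3 probe sets with several genes that fit the name rule were left out. All 60 members matched a RefSeq gene by gene ID. Values are given for every member past 2-fold and the 5 with the highest mean signal, and other members by range or name. The members, gene lists, tests and alternatives were chosen with earlier results of these data known. Alternatives were other scalings, floors, thresholds and filters.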

Additional observations from a re-analysis of the deposited data

Results flagged for a closer look

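For 3 members, of 39 tested in both comparisons of each contrast, the 2 ratios of one contrast pointed in opposite directions. Each did so by more than its log2 error (SD, from genes that have several probe sets). The same count was not made over all probe sets, so whether 3 is more than usual was not tested. GSTF4 was at log2 -0.39 in emf2 over WT and 0.36 in rescued emf2 over transWT, a difference of -0.75. GSTU20 was at -0.38 and 0.48 in these comparisons, a difference of -0.86. UGT71B1 was at 0.38 in transWT over WT and -0.55 in rescued emf2 over emf2, a difference of 0.93. None of these 6 ratios reached 2-fold, and the differences were not tested, since each rests on 4 single arrays.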

How the results depend on the processing

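Of 342 recomputed ratios of members past 2-fold, 0 changed direction. That says little, since ratios past 2-fold were chosen and a change of floor cannot reverse a sign. In transWT over WT the members' median log2 ratio (-0.07) was 0.08 with median scaling and 0.02 after cyclic loess. Across the 5 comparisons, 35 of the 45 calls of members stayed at 2-fold or more under all 4 other scalings. These were the values as deposited, quantile normalization, cyclic loess and median scaling. The deposited values already had nearly equal trimmed means and so hardly differ from the main setting. The other calls fell within 2-fold under 1 or more scalings. The floor mattered more. With the floor at the 60th percentile, 7 members were 2-fold apart in emf2 over WT, 3 in rescued emf2 over transWT, 2 in transWT over WT and 7 in rescued emf2 over WT, and 2 were so the same way in both background comparisons. At that floor the share of members apart was 21.2%, 10.0%, 7.41% and 22.6% in these 4 comparisons, beside 15.1%, 4.01%, 7.46% and 12.4% of all probe sets tested, so that in transWT over WT the members did not stand above the rest. With the floor at the 25th percentile there were 11 in rescued emf2 over transWT, 8 in rescued emf2 over emf2, and 4 the same way in both transgene comparisons (the first 2 counts being 21.6% and 15.4% of members, beside 7.11% and 11.9% of all probe sets). Without a floor (pseudocount of 1) there were 16 in rescued emf2 over transWT, 17 in transWT over WT, 11 in rescued emf2 over emf2 and 24 in rescued emf2 over WT, with 10 and 6 the same way in the background and the transgene comparisons (the 4 comparisons being 26.7%, 28.3%, 18.3% and 40% of members, beside 17.6%, 21.2%, 21.8% and 26.3% of all). At a threshold of 1.5-fold there were 13, 11, 15 and 21 in the same 4 comparisons, and 11 and 5 the same way (the 4 comparisons being 32.5%, 27.5%, 36.6% and 51.2% of members, beside 20.1%, 27.1%, 28.8% and 36.7% of all). With each array scaled to its median, limma called 3 members for the background effect and 1 for the transgene effect, against 0 and 0. Over all 12143 probe sets in that fit it called 90 and 220. Under the other alternatives run it called 0 members. Same-way counts over all probe sets were made with the main settings only (3.57% and 3.4% of those tested in both). The same-way counts of members under the alternatives therefore have no such share beside them. The cause of the shifts between settings was not tested. The choice of probe set per gene could not matter, since each member has 1. No paired analysis was possible because each group has 1 array, and for the same reason no replicate could be left out. Members just above the floor, such as GSTU28 and UGT71C2 in transWT, have ratios that rest on signals close to it.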

Other observations

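The platform table names 5 further genes of these families under other symbols. GT72B1, which is UGT72B1 and conjugates chlorophenols and monolignols, read 1288 in emf2 against 794 in WT and 1012 in rescued emf2 against 736 in transWT, within 2-fold both times (log2 0.70 and 0.46). SGT, which is the sterol glucosyltransferase UGT80A2, read 560 in emf2 against 535 in WT and 424 in rescued emf2 against 596 in transWT. Unlike UGT80B1, it was within 2-fold in all 5 comparisons. UF3GT, which is UGT79B1 of the anthocyanin pathway, was above the floor in transWT alone (140), and AT5G54010, also named UGT79B6, and ATGSTF13 were below it on all 4 arrays.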
